A study of Homo sapiens with 6 samples.

Results

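The BCL2 family genes examined here were 10 transcripts of the mitochondrial route to cell death, picked by gene symbol from the 17297 symbols of the count table. They comprised 3 anti-apoptotic genes (BCL2, BCL2L1 and MCL1), the 2 effectors BAX and BAK1, and 5 BH3-only genes (BID, BAD, BBC3, BCL2L11 and PMAIP1). All 10 were present, with a mean above 1 CPM each, CPM being a gene's reads scaled to the size of its library. They were followed in LNCaP, an established human prostate cancer line, carrying either the empty pBabe vector (pBabe-vector, genotype WT) or wild-type GNA13 cDNA in pBabe (pBabe-GNA13, genotype GNA13 overexpression), and the comparison asks which transcripts differ when Gα13 is raised. Both lines carry the same puromycin-selected vector, each condition is a single stably expressing line, and 3 biological replicates of each were grown on plates for 48 h before RNA sequencing. One library of each line bears the tag std in its column heading, whose meaning is not given in the sources used here, and the remaining libraries are called replicate 2 and replicate 3.

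Proteins of the BCL2 family decide whether the outer mitochondrial membrane stays intact. BAX and BAK1 oligomerize to form pores through which cytochrome c escapes and activates caspases, the anti-apoptotic proteins hold them in check, and the BH3-only proteins sense stress and either neutralize the guardians or activate the effectors directly. Several members are set by transcription, above all BBC3 (PUMA), PMAIP1 (NOXA) and BAX after DNA damage, whereas others such as BAD and BID are controlled mostly after translation. Gα13, the product of GNA13, is a heterotrimeric G protein subunit that signals to RhoA.

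GNA13 itself stood at 820, 886 and 747 CPM in the pBabe-GNA13 libraries (std, replicate 2, replicate 3) and at 76.7, 69.4 and 65.4 CPM in the pBabe-vector libraries (std, replicate 2, replicate 3), a log2 fold change of 3.54 (SE 0.12, adjusted p = 9.12e-05, edgeR's quasi-likelihood F test, adjusted over all genes by the Benjamini-Hochberg method, n = 3 per line). CPM values are normalized by TMM throughout, and library totals ran from 33002160 to 40628970 counts. The 9 prostate luminal markers were all above 1 CPM, with a summed level of 6424 to 9175 CPM in pBabe-GNA13 and 5546 to 8228 CPM in pBabe-vector. The 4 fibroblast markers summed to 17.5 to 23.0 CPM in pBabe-GNA13 and 12.03 to 23.4 CPM in pBabe-vector, 1 of them above 1 CPM, and none of the 4 T cell markers was in the table. The 3 basal markers were low but higher in pBabe-GNA13, at a summed 4.49 to 8.26 CPM against 2.38 to 2.48 CPM, and of 3 neuroendocrine markers SYP alone was in the table, at 2.53 to 3.40 CPM against 4.22 to 4.46 CPM. The part of these shifts in the values below was not tested. Libraries paired by the tag std or, without that tag, by replicate number deviated together across genes. Each result is therefore given without and, where the call changes, with the 3 pairs as a block in the fit.

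The upstream sequences of the members that passed the test in some form are shown first. None of these members passed it without the block. The windows are those of BCL2L1 (chr20:31723964-31724213, minus strand), BCL2 (chr18:63319770-63320019, minus strand), BBC3 (chr19:47232668-47232917, minus strand) and BCL2L11 (chr2:111120664-111120913, plus strand). Each is the 250 bases before the RefSeq start on GRCh38.p14, read 5′ to 3′ on the gene's own strand. Capitals mark matches on either strand to any of the 6 motifs named next. The first of them are the E-box bound by MYC and USF factors (CACGTG) and the AP-1 site of JUN and FOS (TGANTCA). The core read by the FOXO factors (TGTTTAC), the GC box of SP1 (GGGCGG) and the TATA box of the basal machinery (TATAAA) follow. The last, the cyclic AMP response element (TGACGTCA), had no match in these windows.
BCL2L1: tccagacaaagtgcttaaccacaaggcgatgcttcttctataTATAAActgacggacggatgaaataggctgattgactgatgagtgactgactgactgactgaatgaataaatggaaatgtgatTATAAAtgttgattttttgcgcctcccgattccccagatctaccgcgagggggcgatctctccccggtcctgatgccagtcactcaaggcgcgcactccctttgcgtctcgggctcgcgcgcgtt
BCL2: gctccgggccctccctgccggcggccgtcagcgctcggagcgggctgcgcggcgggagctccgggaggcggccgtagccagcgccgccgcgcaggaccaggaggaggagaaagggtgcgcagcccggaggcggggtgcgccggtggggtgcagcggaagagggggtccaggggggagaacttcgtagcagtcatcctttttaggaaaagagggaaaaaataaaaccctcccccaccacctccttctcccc
BBC3: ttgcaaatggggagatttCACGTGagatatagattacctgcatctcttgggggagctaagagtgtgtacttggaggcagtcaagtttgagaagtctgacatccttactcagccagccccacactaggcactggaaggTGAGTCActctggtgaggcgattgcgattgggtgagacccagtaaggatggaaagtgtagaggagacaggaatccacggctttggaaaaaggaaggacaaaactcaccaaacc
BCL2L11: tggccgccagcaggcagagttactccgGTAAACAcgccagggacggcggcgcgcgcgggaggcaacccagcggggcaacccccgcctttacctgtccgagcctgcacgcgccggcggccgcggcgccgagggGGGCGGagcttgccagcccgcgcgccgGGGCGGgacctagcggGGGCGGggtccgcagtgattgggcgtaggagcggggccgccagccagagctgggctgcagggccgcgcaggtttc
No one of these motifs is in all 4 windows. That of BCL2L1, the first of 2 RefSeq starts, holds 2 copies of TATAAA, 208 to 203 and 125 to 120 bases before the start, letters present in 10.7% of 35114 RefSeq promoter windows of this length. The BCL2 window, 70% G or C, holds none of these motifs. The BBC3 window holds 1 E-box (6.35% of all windows) and 1 AP-1 match (6.57%), and that of BCL2L11 holds 1 FOXO core (2.98%) and 3 GC boxes (42.6%). Of the 9 members with an entry, BAX, in a window of its own, held 4 E-box matches within the 138 bases before its start. A match is a run of letters and not a shown binding site, and a missing match says only that these letters are not in the window.

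Compared per kilobase of exon, MCL1, a short-lived guardian, was the most abundant member in pBabe-vector at 40.0 ± 3.09 CPM per kb (mean ± SD, n = 3). BAD, BAX and BCL2L1 followed at 17.96 ± 2.05, 17.6 ± 0.896 and 16.9 ± 1.00 CPM per kb, and did not differ beyond their spread. BAK1 (9.86 ± 0.619 CPM per kb) and PMAIP1 (9.70 ± 1.88 CPM per kb) came next, again within their spread. BCL2L11, BID and BBC3 stood at 4.84 ± 0.3003, 4.18 ± 0.452 and 3.29 ± 1.85 CPM per kb, neighbours in an order that their SDs do not separate. BCL2, the founding guardian, was lowest by far at 0.735 ± 0.0942 CPM per kb. In pBabe-GNA13 MCL1 again stood first at 38.1 CPM per kb and BCL2 last at 0.941 CPM per kb. Lengths are the joined exons of Gencode 44, and with the canonical transcript in their place the order changed only within the neighbours just named. The distances did change, since MCL1, BAX, BAD and BCL2L1 then stood at 62.9, 57.4, 33.0 and 27.6 CPM per kb in pBabe-vector, so the lead of MCL1 and the closeness of the next 3 depend on the length used.

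Without the block 0 of the 10 members passed edgeR's adjusted p of 0.05 in pBabe-GNA13 against pBabe-vector, where 0.139% of all 17297 genes passed. DESeq2 and limma voom without the block also called 0 members, and 1 (BCL2L1) had an unadjusted p under 0.05 in edgeR, against 8.46% of all genes. With the block 4 of 10 passed, 3 higher (BCL2, BBC3 and BCL2L11) and 1 lower (BCL2L1), beside 19.7% of all genes (9.32% higher and 10.4% lower). With each chromosome centred on its median as well, 2 of 10 passed (BCL2 and BBC3), beside 13.9% of all genes. With the block, DESeq2 called BCL2L1 and BBC3 (11.6% of all genes called) and limma voom called BCL2, BCL2L1 and BBC3 (15.4%). The levels of the 2 lines did not overlap for BCL2L1 and BAX, 2 of 10 members against 14.1% of all genes, BAX on the higher side (7.3% of all genes) and BCL2L1 on the lower (6.79%). In all 3 pairs 4 members were higher and 3 lower, 7 of 10 against 48% of all genes (22.6% higher and 25.3% lower). With 10 genes, chosen with results known, nothing is read from the distance of these shares from those of the whole table. In bulk RNA, a change in the mix of cells and a change in RNA per cell cannot be told apart. The replicates are labelled as biological replicates of 1 line each, so the p-values measure the spread between these cultures and not between independently made lines.

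**Figure D1:**
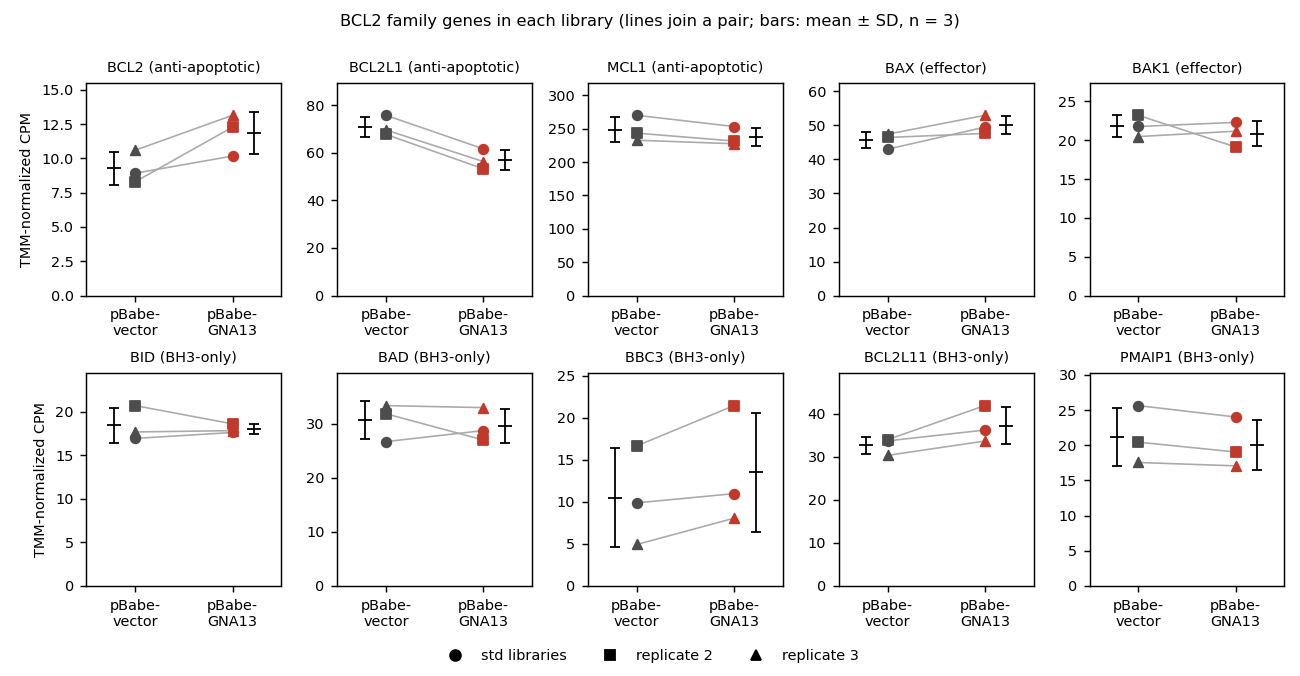
TMM-normalized CPM of the 10 members in each library, pBabe-vector in grey and pBabe-GNA13 in red, with lines joining the libraries of a pair, symbols for the pair and bars for the mean ± SD (n = 3); every vertical axis starts at 0. BCL2L1 is lower in all 3 pBabe-GNA13 libraries (53.2 to 61.6 CPM) than in any pBabe-vector library (67.7 to 75.7 CPM), and BBC3 is higher in the pBabe-GNA13 library of each pair, across a wide spread between pairs.

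Among the guardians, BCL2L1, which encodes BCL-XL, was lower in the GNA13 line and BCL2 was higher. BCL2L1 (chr20:31664452-31723989, minus strand, GRCh38) measured 61.6, 53.2 and 56.3 CPM in the pBabe-GNA13 std, replicate 2 and replicate 3 libraries, and 75.7, 67.7 and 69.6 CPM in their pBabe-vector partners. Every pBabe-GNA13 library lay below every pBabe-vector library, by a like amount in each pair. The means were 57.0 ± 4.25 and 71.0 ± 4.20 CPM (SD, n = 3), a log2 fold change of -0.32 (SE 0.10, edgeR adjusted p = 0.397 without the block and 4.67e-05 with it, with an exact two-sided permutation p of 0.10, the smallest that 3 against 3 can give). The pair differences were -0.30, -0.35 and -0.31 in log2 CPM, and the blocked call held without any one pair (edgeR adjusted p of 1.94e-05 to 0.000505).

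That fall sat on a chromosome where most genes were lower. Over 337 genes of chromosome 20 with at least 1 CPM, 272 were lower in pBabe-GNA13. The shift lay mostly on one side of BCL2L1. Of 221 genes starting at higher coordinates 206 were lower, with a median log2 fold change of -0.28. Of 115 genes starting at lower coordinates 65 were lower, with a median of -0.03. The median of the 221 genes was -0.27, -0.31 and -0.30 in the std, replicate 2 and replicate 3 pairs, so it recurred in each, and 88 of them lay below BCL2L1. The 10 nearest genes on each side of BCL2L1 spanned the step. Toward lower coordinates they reached 6.05 Mb away and held a run of genes on both sides of 0, and toward higher coordinates they reached 0.78 Mb. The nearest expressed genes toward lower coordinates, HM13 (-0.41) and ID1 (-1.04), were lower as well, and the next one, FRG1B, stood at 0.05. BCL2L1 thus lay inside the lowered stretch and not at its edge. Toward higher coordinates TPX2 (-0.31) stood close by. These genes were picked after their values were seen. When each chromosome was centred on its own median with the block kept, BCL2L1 was left at -0.11 on the log2 scale (edgeR adjusted p = 0.168). The median taken off was -0.21, over both sides of the step. It is smaller in size than the -0.28 of the 221 genes, so this centring removes less than the shift of that stretch. Whether the DNA of the 2 lines differs in copy number here was not tested. BCL2L1 also shares 41.3% of its exon bases with ABALON, a non-coding gene of the opposite strand, whose mean was 0.869 ± 0.291 CPM in pBabe-GNA13 and 1.44 ± 0.447 CPM in pBabe-vector (n = 3), and whether strand was used in counting is not given in the sources used here.

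**Figure D2:**
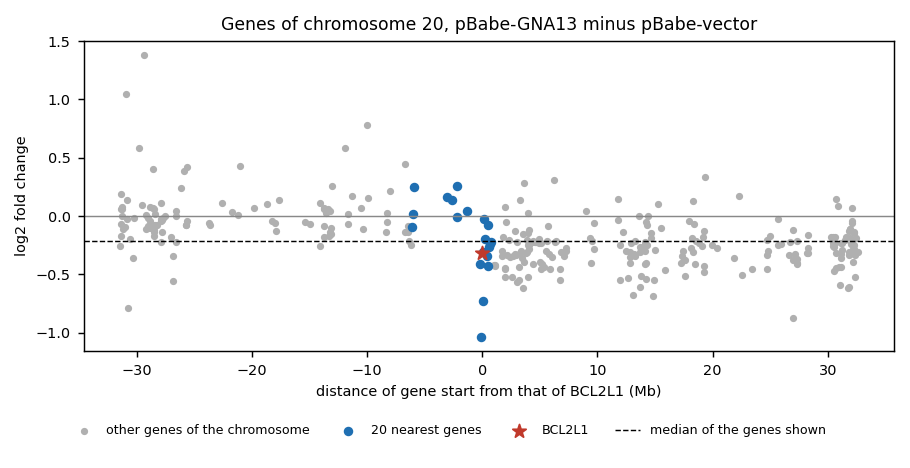
edgeR log2 fold change (pBabe-GNA13 minus pBabe-vector, no block) of 337 genes of chromosome 20 against the distance of each gene's start from that of BCL2L1 in Mb; BCL2L1 is the star, the 10 nearest genes on each side of it (20 in all) are blue and the dashed line is the median of the genes shown (-0.21). Most genes to the left scatter about 0, though HM13 and ID1, the nearest on that side, lie below it. Most genes to the right lie below 0.

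BCL2 (chr18:63123346-63320128, minus strand) stood at 10.2, 12.3 and 13.1 CPM in the pBabe-GNA13 std, replicate 2 and replicate 3 libraries and at 8.92, 8.30 and 10.6 CPM in the paired pBabe-vector libraries. It was higher in pBabe-GNA13 in 3 of 3 pairs, but the std pBabe-GNA13 library lay below replicate 3 of pBabe-vector. The means were 11.9 ± 1.53 and 9.27 ± 1.19 CPM (n = 3), a log2 fold change of 0.36 (SE 0.16, edgeR adjusted p = 0.617 without the block and 0.0125 with it). Without the replicate 2 pair, where the difference was widest, the blocked adjusted p of edgeR was 0.180, and DESeq2 with the block gave an adjusted p of 0.0878. The median of chromosome 18 was -0.02. Of the 20 genes nearest to BCL2, 17 had a smaller fold change than it, and the other 3 reached up to 3.80. PHLPP1, picked after its values were seen, is among the 17 but nearly level with BCL2, at 0.35. With the block 5 of the 20 were called higher and 1 lower, beside 9.32% and 10.4% of all genes.

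MCL1 (chr1:150560895-150579738, minus strand) was close to level between the lines. It measured 253, 231 and 227 CPM in pBabe-GNA13 and 270, 243 and 233 CPM in pBabe-vector, in the same order of libraries. All 3 pairs were slightly lower in pBabe-GNA13, with overlap between the groups (log2 fold change -0.07, SE 0.10, edgeR adjusted p = 0.968 without the block and 0.411 with it). In both lines the std library was the highest and replicate 3 the lowest.

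The make-up of the guardians differed between the lines. Per kilobase, MCL1 made up 71.7 to 73.1% of the summed guardian level in pBabe-GNA13 and 68.2 to 70.0% in pBabe-vector, BCL2L1 24.9 to 26.3% against 28.9 to 30.2%, and BCL2 1.44 to 2.04% against 1.14 to 1.53%. The shares of MCL1 and BCL2L1 did not overlap between the lines and that of BCL2 did. They are parts of a single sum, so a fall of BCL2L1 raises the share of MCL1, whose own level overlapped between the lines. The part of the lowered genes of chromosome 20 around BCL2L1 in these shares was not tested. The log2 ratio of BCL2 to BCL2L1 was -3.86 ± 0.28 in pBabe-GNA13 and -4.53 ± 0.20 in pBabe-vector (n = 3), higher in every pBabe-GNA13 library and by 0.49, 0.91 and 0.62 in the std, replicate 2 and replicate 3 pairs. This ratio was added after the values had been seen and has no test.

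**Figure D3:**
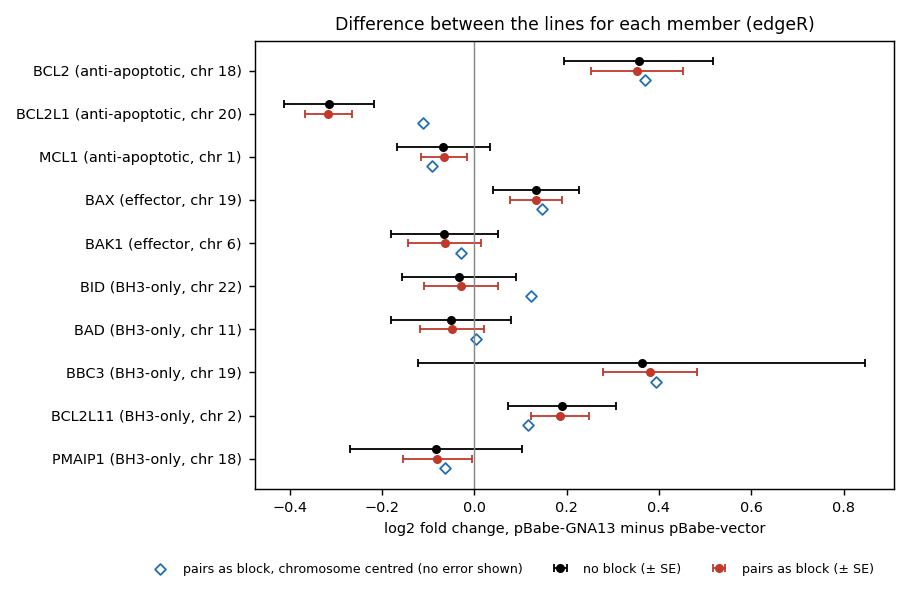
log2 fold change of each member (pBabe-GNA13 minus pBabe-vector) from edgeR without the block (black, ± SE), with the pairs as a block (red, ± SE) and with the block and each chromosome centred on its median (open diamonds, no error shown). The block leaves the estimates nearly in place and narrows their errors, most of all for BBC3, and centring moves BCL2L1 from -0.32 to -0.11 and BID from -0.03 to 0.12.

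Of the effectors, BAX separated the lines and BAK1 did not. BAX (chr19:48954815-48961798, plus strand) measured 49.5, 47.7 and 52.97 CPM in the pBabe-GNA13 std, replicate 2 and replicate 3 libraries and 43.0, 46.4 and 47.4 CPM in pBabe-vector. Each pBabe-GNA13 library was above each pBabe-vector library, by a small margin between replicate 2 of pBabe-GNA13 and replicate 3 of pBabe-vector. The log2 fold change was 0.13 (SE 0.09, edgeR adjusted p = 0.838 without the block and 0.102 with it, exact permutation p = 0.10), so the difference did not pass the test in either form. BAK1 (chr6:33572547-33580293, minus strand) had 22.3, 19.1 and 21.2 CPM in pBabe-GNA13 and 21.8, 23.2 and 20.5 CPM in pBabe-vector, with a log2 fold change of -0.06 (SE 0.12, edgeR adjusted p = 0.981). The groups overlapped, and BAK1 was higher in 2 pairs and lower in the replicate 2 pair.

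BBC3, which encodes PUMA, was the BH3-only member with the widest spread, and most of it lay between pairs and not between lines. BBC3 (chr19:47220822-47232766, minus strand) stood at 11.0, 21.4 and 8.05 CPM in the pBabe-GNA13 std, replicate 2 and replicate 3 libraries and at 9.87, 16.7 and 4.92 CPM in pBabe-vector. Both lines were highest in replicate 2 and lowest in replicate 3, and each pBabe-GNA13 library was above its partner. The mean of the highest pair was 2.98 times that of the lowest, a fold reached by 1.52% of 14059 genes with at least 1 CPM, whereas the lines differed by a log2 fold change of 0.36 (SE 0.48, edgeR adjusted p = 0.957 without the block). With the pairs as a block it was 0.38 (SE 0.10, edgeR adjusted p = 0.00787), and 0.39 with chromosomes centred as well (edgeR adjusted p = 0.00881).

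The pair differences of BBC3 were 0.15, 0.36 and 0.70 in log2 CPM for the std, replicate 2 and replicate 3 pairs, and without the replicate 3 pair the blocked adjusted p of edgeR was 0.103. Without the block the sign itself hung on 1 library, since leaving out replicate 2 of pBabe-GNA13 gave a log2 fold change of -0.14. All 20 of the nearest expressed genes on chromosome 19, 10 on each side, had a smaller fold change than BBC3, with a median of -0.05. As a share of the summed pro-apoptotic level per kilobase, BBC3 made up 4.93, 9.79 and 3.68% in the pBabe-GNA13 std, replicate 2 and replicate 3 libraries and 4.71, 7.32 and 2.37% in pBabe-vector.

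BCL2L11, which encodes BIM, an activator that binds all the guardians, was a little higher in the GNA13 line. BCL2L11 (chr2:111119378-111168444, plus strand) measured 36.2, 41.8 and 33.6 CPM in pBabe-GNA13 (std, replicate 2, replicate 3) and 33.6, 33.9 and 30.3 CPM in pBabe-vector. It was higher in 3 of 3 pairs, and replicate 3 of pBabe-GNA13 lay within the range of pBabe-vector. The log2 fold change was 0.19 (SE 0.12, edgeR adjusted p = 0.779 without the block and 0.0376 with it). This blocked call was the least steady of the 4, since edgeR's adjusted p with the block was 0.362 without the replicate 2 pair, 0.0806 without the replicate 3 pair and 0.254 with chromosomes centred.

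The remaining BH3-only genes did not pass the test in any form. PMAIP1 (chr18:59899996-59904305, plus strand), which encodes NOXA, an antagonist of MCL1, measured 24.01, 19.0 and 17.1 CPM in pBabe-GNA13 and 25.6, 20.4 and 17.5 CPM in pBabe-vector (std, replicate 2, replicate 3). It was lower by little in all 3 pairs, and both lines were highest in the std library and lowest in replicate 3, with a fold between pairs of 1.43 (log2 fold change between lines -0.08, SE 0.19, edgeR adjusted p = 0.988). BID (chr22:17734138-17774770, minus strand), the link from death receptors to mitochondria, had 17.6, 18.6 and 17.9 CPM in pBabe-GNA13 and 17.0, 20.7 and 17.7 CPM in pBabe-vector. Its groups overlapped at a log2 fold change of -0.03 (SE 0.12, edgeR adjusted p = 1.0), which turned to 0.12 (edgeR adjusted p = 0.353 with the block) when chromosome 22, whose median was -0.15, was centred. BAD (chr11:64269830-64284704, minus strand), which growth factor signalling silences by phosphorylation, had 28.8, 27.0 and 33.0 CPM in pBabe-GNA13 and 26.7, 31.9 and 33.4 CPM in pBabe-vector. Its groups overlapped too (log2 fold change -0.05, SE 0.13, edgeR adjusted p = 0.995), and 23.7% of its exon bases are shared with GPR137 on the opposite strand. Of the other members, BCL2L11 shares 10.8% of its exon bases with MIR4435-2HG on the opposite strand, and no further member shares more than 5.27% with another gene.

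**Figure D4:**
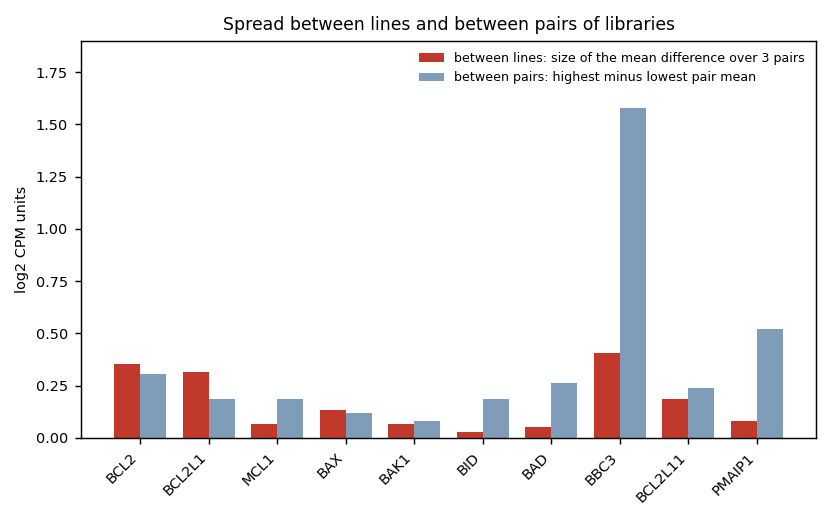
For each member, the size of the mean log2 CPM difference between lines over 3 pairs (red) and the range of the 3 pair means (blue), both in log2 CPM units from 0. The difference between lines exceeds the range between pairs for BCL2, BCL2L1 and BAX, and the range between pairs is widest for BBC3 (1.58) and PMAIP1 (0.52).

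Set against each other, the pairs and the lines split the members. The difference between lines was larger than the range of the pair means for 3 of 10 members (BCL2, BCL2L1 and BAX), against 18.3% of 14059 genes with at least 1 CPM. For the other members the libraries differed more by pair than by line, and the median range of pair means over those genes was 0.32 in log2 CPM. By role, the median log2 fold change was -0.07 for the guardians and -0.03 for the pro-apoptotic members, beside -0.0013 for all genes. With the block and each chromosome centred these medians were -0.09 and 0.12, so the sign of the pro-apoptotic median depended on the centring, and it also depended on the libraries kept, with medians of -0.0087 to 0.078 when 1 library was left out.

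The guardians' share of the family was a little lower in each pBabe-GNA13 library than in its partner, without separating the lines. Summed per kilobase, the guardians made up 44.6, 42.5 and 42.6% of the family in the pBabe-GNA13 std, replicate 2 and replicate 3 libraries and 48.6, 43.9 and 45.7% in pBabe-vector. The groups overlapped, since the std library of pBabe-GNA13 was above replicate 2 of pBabe-vector. The log2 ratio of guardians to pro-apoptotic members was -0.39 ± 0.07 against -0.23 ± 0.14 (n = 3), with pair differences of -0.23, -0.08 and -0.18. The difference of -0.16 between the lines was -0.091 without the std library of pBabe-vector and -0.23 without its replicate 2.

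Of the 6 ratios of 1 guardian to 1 pro-apoptotic member, that of BCL2L1 to BAX had the widest difference between the means of the lines. Its log2 value per kilobase was -0.51 ± 0.12 in pBabe-GNA13 and -0.06 ± 0.15 in pBabe-vector (n = 3), lower in every pBabe-GNA13 library and by -0.50, -0.38 and -0.46 in the std, replicate 2 and replicate 3 pairs. MCL1 to BCL2L11 was also lower in every pBabe-GNA13 library, with a difference of -0.25 in log2. MCL1 to its antagonist PMAIP1 was level, at a difference of 0.01. The groups overlapped for BCL2 to BAX (0.22), BCL2 to BCL2L11 (0.17) and BCL2L1 to BAD (-0.27). These ratios are descriptions and were not tested, and neither was the part in them of the lowered genes of chromosome 20 around BCL2L1.

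The profile of a member over the 6 libraries was compared with that of every gene of at least 1 CPM, by the root mean square difference of log2 CPM centred on each gene's mean. The genes nearest to BCL2L1 were C22orf46, MYO5A and RP3-324O17.4, each at 0.04, where BCL2L1 itself varied by 0.18 about its mean. Among the nearest to BBC3, which varied by 0.69, were FBXO32 and PNMA3 (both 0.12). BCL2, which varied by 0.23, was matched most closely by RP1-267D11.6 and DDX51 (both 0.04) and PAXBP1 (0.07). These differences, the smallest or among the smallest over 14059 genes, are given with no test.

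Around the family, a list of 19 genes of cell cycle arrest, DNA repair and stress, among them CDKN1A, MDM2, BTG2, XPC and SESN1 and all named in the plot of pair differences, held the largest share of called genes of the 6 gene lists examined. Of the 19 genes 13 rose and 1 fell with the block (19.7% of all genes called). Without it none passed edgeR, 9 had an unadjusted p under 0.05 in edgeR (8.46% of all genes), and DESeq2 and limma voom called 2 and 0. The median log2 fold change of the list was 0.33, and 15 of 19 were higher in all 3 pairs, beside 22.6% of all genes. With chromosomes centred as well, the count was again 13 rises and 1 fall (13.9% of all genes called), and the median was 0.23. The called genes were not all the same. TIGAR and TRIAP1, both on chromosome 12, no longer passed, whereas XPC and AEN passed only with centring. The list was drawn up with earlier results known.

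The 3 with the smallest blocked p were BTG2, MDM2 and CDKN1A. BTG2, an antiproliferative gene, measured 46.2, 48.8 and 35.8 CPM in pBabe-GNA13 and 28.2, 30.9 and 24.3 CPM in pBabe-vector (std, replicate 2, replicate 3), 0.65 higher on the log2 scale (edgeR adjusted p = 0.265 without the block and 1.41e-08 with it). MDM2, an E3 ubiquitin ligase, measured 173, 171 and 157 CPM against 126, 118 and 107 CPM (log2 fold change 0.52, edgeR adjusted p = 0.176 and 2.72e-08). Both separated the lines, but MDM2 lies on chromosome 12, whose median was 0.29, and with that chromosome centred and the block it stood at 0.23 (edgeR adjusted p = 0.003). CDKN1A, which encodes the cell cycle inhibitor p21, measured 105, 153 and 132 CPM against 77.3, 114 and 93.0 CPM (log2 fold change 0.46, edgeR adjusted p = 0.550 and 2.42e-07). Its groups overlapped, since the std library of pBabe-GNA13 was below replicate 2 of pBabe-vector, and it was higher in 3 of 3 pairs.

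TP53INP1 alone of the list fell with the block (log2 fold change -0.31, edgeR adjusted p = 5.25e-05), and was picked after its values were seen. Of the 3 members that DNA damage is known to raise, BBC3 rose with the block, while BAX (0.13) and PMAIP1 (-0.08) did not pass it.

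**Figure D5:**
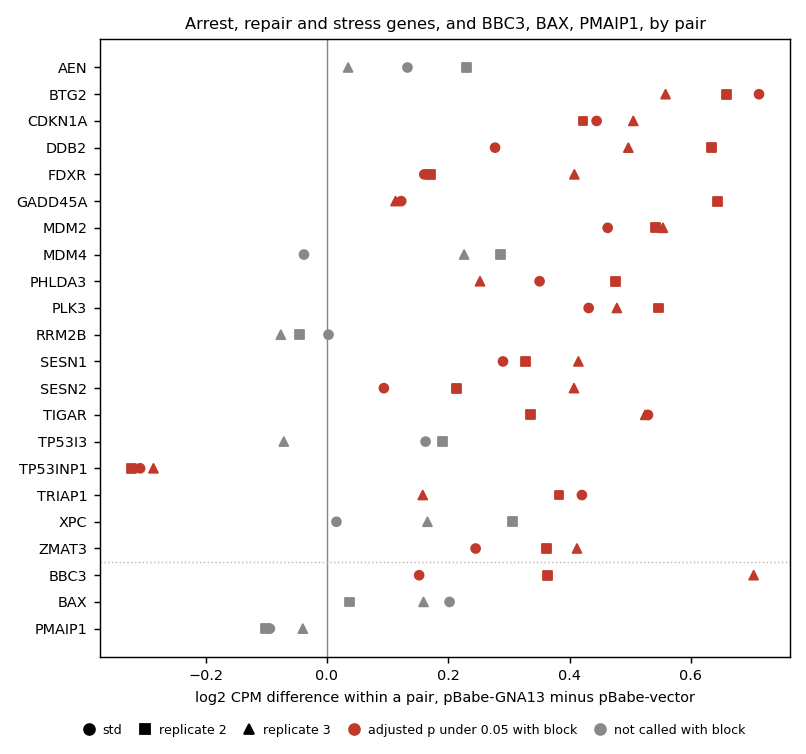
log2 CPM difference within each pair (pBabe-GNA13 minus pBabe-vector) for the 19 arrest, repair and stress genes and, under the dotted line, for BBC3, BAX and PMAIP1, with 1 symbol per pair; red marks genes with an edgeR adjusted p under 0.05 with the block. For 15 of the 19 genes of the list every pair lies to the right of 0 (22.6% of all genes), and BBC3 lies at 0.15, 0.36 and 0.70.

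The other genes of the family were split. Of 13 listed, 11 were in the table. With the block 2 rose and 2 fell (19.7% of all genes called), also with chromosomes centred (13.9%). Without the block edgeR, DESeq2 and limma voom called 0, and 1 had an unadjusted p under 0.05 in edgeR, against 8.46% of all genes. BCL2L13, a mitophagy receptor, fell from 132.5 ± 9.55 to 106.7 ± 7.64 CPM (log2 fold change -0.31, edgeR adjusted p = 6.40e-05 with the block, n = 3), and with chromosome 22 centred it stood at -0.16 (edgeR adjusted p = 0.0381 with the block). HRK, a BH3-only gene, rose from 2.48 ± 0.929 to 4.25 ± 1.64 CPM (log2 fold change 0.77, edgeR adjusted p = 0.000966 with the block, n = 3), and with chromosome 12 centred it stood at 0.48 (edgeR adjusted p = 0.0494 with the block). BOK, an effector-like member, fell (log2 fold change -0.26, edgeR adjusted p = 0.00496 with the block), and BIK, a BH3-only gene picked after its values were seen, rose (0.34, 0.0304).

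Downstream of the membrane, 2 of 17 genes rose and 1 fell with the block, beside 9.32% and 10.4% of all genes, and 1 passed with chromosomes centred, beside 13.9%. APAF1, the scaffold of the apoptosome, measured 10.2 ± 1.22 CPM in pBabe-GNA13 and 6.94 ± 1.53 CPM in pBabe-vector (log2 fold change 0.56, edgeR adjusted p = 0.464 without the block and 0.000394 with it, n = 3). It lies on chromosome 12, and with that chromosome centred its blocked value was 0.28 (edgeR adjusted p = 0.102). The executioner caspase CASP6 rose (0.48, edgeR adjusted p = 0.00398 with the block), also with chromosomes centred (edgeR adjusted p = 0.00268). VDAC2, the outer membrane channel that BAK1 docks on, fell with the block (-0.18, edgeR adjusted p = 0.0108), but did not pass with centring (edgeR adjusted p = 0.0672).

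Of 10 genes of the death receptor pathway, which reaches the mitochondria through BID, 3 rose and 0 fell with the block, beside 9.32% and 10.4% of all genes. They were the receptors TNFRSF1A (log2 fold change 0.43, edgeR adjusted p = 6.64e-07 with the block) and TNFRSF10A (0.28, 0.00852), and CFLAR (0.26, 0.00473), an inhibitor of CASP8. With chromosomes centred TNFRSF10A alone passed, at an edgeR adjusted p of 0.00282, beside 13.9% of all genes.

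Among 12 other transcription regulators of the family, 3 rose and 2 fell with the block, beside 9.32% and 10.4% of all genes, and 4 passed with chromosomes centred, beside 13.9%. DDIT3 (CHOP), which can raise BCL2L11 and BBC3 in stress, stood at 29.2, 44.6 and 12.04 CPM in pBabe-GNA13 and at 24.6, 17.6 and 8.13 CPM in pBabe-vector (log2 fold change 0.77, edgeR adjusted p = 0.827 without the block and 5.69e-05 with it). DDIT3 lies on chromosome 12, and with that chromosome centred and the block it stood at 0.43 (edgeR adjusted p = 0.0140). It varied 2.82-fold between pairs, with replicate 3 lowest in both lines, as for BBC3. In pBabe-vector, however, DDIT3 was highest in the std library and BBC3 in replicate 2. A link between DDIT3 and BBC3 was not tested. E2F1 fell with the block (log2 fold change -0.43, edgeR adjusted p = 5.27e-05), but it lies in the lowered stretch of chromosome 20. With the whole chromosome centred it stood at -0.22 (edgeR adjusted p = 0.0334). That centring takes off a median of -0.21, smaller in size than the -0.28 of the 221 genes of the stretch. JUN rose with the block (0.29, edgeR adjusted p = 0.00164) and stood at 0.26 with chromosomes centred (edgeR adjusted p = 0.00536). The other called genes were picked after their values were seen. FOXO1 rose with the block (0.27, edgeR adjusted p = 0.0291), also with chromosomes centred (0.29, edgeR adjusted p = 0.0281). ATF4, on chromosome 22, fell with the block (-0.18, edgeR adjusted p = 0.0178) and stood at -0.03 with that chromosome centred (edgeR adjusted p = 0.809).

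Among 13 regulators of the stability and binding of the proteins, 2 rose and 1 fell with the block, beside 9.32% and 10.4% of all genes, and 2 passed with chromosomes centred, beside 13.9%. BAG1, a BCL2-binding cochaperone, rose (log2 fold change 0.30, edgeR adjusted p = 0.000159 with the block and 0.0238 with chromosomes centred). FBXL14 rose (0.51, 0.000213) and YWHAZ, a 14-3-3 protein that can sequester phosphorylated BAD, fell (-0.16, 0.0200), but neither passed with chromosomes centred (edgeR adjusted p = 0.136 and 0.149). Without the block, edgeR and limma voom called 0 genes of the 4 lists besides those of the family and of arrest, repair and stress. In edgeR 2 genes each of the caspase and death receptor lists and 1 each of the 2 regulator lists had an unadjusted p under 0.05. The share over all genes was 8.46%. DESeq2 without the block called 1 gene of the death receptor list and 1 of the stability list, beside 271 of all 17297 genes.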

How the data were processed

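Total RNA of 3 cultures per line was sequenced by the authors, who checked reads with FastQC 0.11.7, aligned them with STAR to the Gencode 38 transcriptome and counted them with featureCounts. The values they deposited are raw read counts, whole numbers listed by gene symbol without normalization, for 17297 symbols (0 columns not used). One read equals 0.0238 to 0.0312 TMM-normalized CPM and the floor of 3 counts 0.0715 to 0.0935 CPM, which covers counting error only.

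Counts were tested with edgeR 4.0.16 (R 4.3.3; TMM, quasi-likelihood F test, no filter on low counts, Benjamini-Hochberg adjustment over all genes, called at an adjusted p under 0.05) with the line as the only term. log2 CPM used a prior count of 2. Exact two-sided permutation tests were run in SciPy 1.17.1. The heading of the std pBabe-GNA13 library repeats the number 2, so this library was tied to its line and, by its tag, to the std pBabe-vector library (replicate 1). Deviations from the line means correlated at 0.659, 0.807 and 0.888 within the std, replicate 2 and replicate 3 pairs and at -0.736 to 0.125 between pairs (Pearson's r over 12778 genes, which are not independent), so the pairs were treated as pairs. The deviations of a gene cancel out within a line, so high values within pairs push those between pairs down. These correlations come from the counts that the block is then used to test, and are no independent evidence for the pairing. The alternatives were the block, other normalization, a low-count filter, chromosome centring, DESeq2 1.42.0, limma 3.58.1 (voom), each library left out and, under the block, each pair left out, and after seeing the data DESeq2 and voom with the block. The fits were tested on simulated data.

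Positions are from Gencode 44 (GRCh38), matched by current symbol for 13706 symbols and by older symbol for 691, and upstream sequences from RefSeq (9 of 10 members matched, MCL1 did not). The members and gene lists were chosen with earlier results of these data known. Named genes are the members, GNA13, up to 3 genes per list with the smallest blocked p among those called, and the 3 nearest profiles of the 3 members with the smallest blocked p, except items that are not reported here.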

Additional observations from a re-analysis of the deposited data

How the results depend on the processing

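Over the whole table, 24 genes passed without the block, 3407 with the replicate block, and 2405 with the block and chromosomes centred. DESeq2 called 271 and limma voom 10 without the block, 2000 and 2659 with it. Leaving out 1 library gave 2 to 15 calls, and leaving out 1 pair under the block 2250 to 3266 (2550 without the replicate 2 pair). Of the members, 0 passed without the block under edgeR, DESeq2, voom, the other normalization, the filter or any left-out library, 4 with the block, 2 with chromosomes centred as well, 2 with blocked DESeq2, 3 with blocked voom, and 2 to 4 with a pair left out under the block.

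For the lists, calls went from 0 without the block to the following with it, with centring as well, with blocked DESeq2, with blocked voom and, as a range, with a pair left out: other family genes 4, 4, 3, 3 and 2 to 4, the caspase list 3, 1, 3, 3 and 2 to 4, the death receptor list 3, 1, 2, 3 and 2 to 3, the arrest, repair and stress list 14, 14, 13, 13 and 12 to 16, other transcription regulators 5, 4, 2, 3 and 2 to 4, and stability regulators 3, 2, 3, 3 and 2 to 3. DESeq2 without the block called 2 genes of the arrest, repair and stress list, 1 of the death receptor list and 1 of the stability list.

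The guardians' median log2 fold change ran from -0.11 to -0.0041 with a library left out. The pro-apoptotic median, -0.03, was 0.12 with chromosomes centred, with or without the block, and -0.0087 to 0.078 with a library left out (highest without pBabe-vector replicate 1). Members near 0 changed sign. Under the block without the replicate 2 pair BAK1 was 0.037, BID 0.031 and BAD 0.040. With chromosomes centred BID was 0.12, with or without the block, and BAD 0.0016 without it and 0.0031 with it. With a library left out, BID ranged from -0.091 to 0.058 (positive without pBabe-vector replicate 2), BAD from -0.14 to 0.015 (positive without pBabe-GNA13 replicate 2, at 0.011, or pBabe-vector replicate 3) and PMAIP1 from -0.22 to 0.078 (positive without pBabe-GNA13 replicate 3, at 0.028, or pBabe-vector replicate 1). BBC3 ranged from -0.14 (without pBabe-GNA13 replicate 2) to 0.86 (without pBabe-vector replicate 2). The cause of these changes was not tested. BCL2, BCL2L1, MCL1, BAX and BCL2L11 kept their sign under all 18 alternatives. The block changed the calls of BCL2, BCL2L1, BBC3 and BCL2L11 and of no other member. With 3 cultures of 1 line each, a difference between lines and a difference made by GNA13 cannot be told apart.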
